A study of Mus musculus with 20 samples.

Results

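MHC class II presentation genes were followed for 24 h after the induction of IKZF1 in B3 cells, a mouse line that stands for the pre-B stage. The 10 genes were chosen by name from knowledge of the pathway, with earlier results of these data known. Matched from symbol to Ensembl identifier, they are 10 of the 56239 genes in the count table. They were the master regulator Ciita, the invariant chain Cd74, the classical chains H2-Aa, H2-Ab1 and H2-Eb1, and the peptide-editing chains H2-DMa, H2-DMb1, H2-DMb2, H2-Oa and H2-Ob. Every library came from B3 cells transduced by retrovirus with Ikaros-ERt2, a fusion of the transcription factor IKZF1 to a tamoxifen-responsive receptor domain that is held outside the nucleus until 4-hydroxytamoxifen (4-OHT) is added. Cells were left untreated (0 h) or received 500 nM 4-OHT for 30 min or for 1, 2, 6, 12, 15, 18, 21 or 24 h, which gave 10 time points, each in duplicate, and 20 libraries. The RNA was the fraction bound to chromatin, which is rich in transcripts still being made. The line came originally from a lymphoma, IKZF1 was supplied in addition to the cells' own, and the 20 libraries include neither vehicle-treated cells nor 4-OHT-treated cells without the fusion, so effects of the drug and of time in culture cannot be told apart from those of IKZF1. All samples are of 1 line, so no value here speaks for pre-B cells in general.

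MHC class II molecules present peptides taken from endosomes to helper T cells, and in the B lineage they are low in early progenitors and abundant on mature B cells. CIITA does not bind DNA itself but is recruited by factors sitting on short promoter elements, the X1, X2 and Y boxes, that recur across class II genes. The invariant chain occupies the groove of a new class II molecule, H2-DM exchanges the last piece of it for peptide, and H2-O, which is found chiefly in B cells, restrains H2-DM.

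The boxes can be seen in the promoters themselves. RefSeq (GRCm38.p6) gave promoter windows, from 250 bases before to 50 bases after the start, for 7 of the 10 genes, with 2 alternative windows for H2-DMa. No window was used for Ciita, Cd74 or H2-Ab1. The Y box was searched as TGATTGG, the X1 box as GCAAC, the X2 box as ATGATGC or TGACGTCA, and the core of Ikaros sites as GGGAA, on both strands, with no letters shared between matches of different boxes on a strand. These letters were chosen after the windows had been read. The 6 genes with TGATTGG are shown first, each cut to 62 bases around it and written on the gene's strand, because they show the element that these genes share. Capitals mark, from left to right, the X1, X2 and Y box letters where they were found.
H2-Ob (chr17:34238801-34238862, plus strand): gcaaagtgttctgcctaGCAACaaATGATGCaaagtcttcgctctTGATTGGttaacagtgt
H2-Oa (chr17:34092289-34092350, plus strand): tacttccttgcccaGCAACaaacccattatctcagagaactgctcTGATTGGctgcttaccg
H2-Aa (chr17:34287857-34287918, minus strand): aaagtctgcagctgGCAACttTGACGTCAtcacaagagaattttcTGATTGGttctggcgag
H2-Eb1 (chr17:34305761-34305822, plus strand): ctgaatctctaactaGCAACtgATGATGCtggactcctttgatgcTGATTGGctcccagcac
H2-DMb1 (chr17:34153083-34153144, plus strand): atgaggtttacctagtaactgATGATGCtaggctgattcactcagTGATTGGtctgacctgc
H2-DMb2 (chr17:34145112-34145173, plus strand): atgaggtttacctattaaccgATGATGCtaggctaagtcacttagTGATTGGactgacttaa

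TGATTGG lay in the windows of 6 of the 7 genes, against 7.82% of all 32851 promoter windows (4.01% on the gene's strand). In H2-Ob, H2-Oa, H2-Aa and H2-Eb1, GCAAC stood 23, 26, 26 and 25 bases before it. GCAAC within 45 bases before the first TGATTGG, both on the gene's strand, was found in 59 of all windows (0.180%). GCAAC alone was found in 35.2% on either strand and in 19.3% on the gene's strand. ATGATGC was found in H2-Ob, H2-Eb1, H2-DMb1 and H2-DMb2 and in 2.46% of all windows (1.29% on the gene's strand). TGACGTCA was found in H2-Aa and in 1.79% of all windows. The promoters of the neighbouring genes H2-DMb1 and H2-DMb2 read alike through the boxes, and GCAAC was not found in either. These matches are descriptions of letters and show no binding. Since the letters were chosen after these windows had been read, the shares of all windows are no test of enrichment.

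TGATTGG was not found in either window of H2-DMa, and no other part of that gene was searched. Both windows lie inside the gene body that GENCODE gives for H2-DMa, and the first, shown here, also spans the start of Brd2 on the other strand. Capitals mark GTTGC, which is GCAAC read on the other strand.
H2-DMa (chr17:34122582-34122881, plus strand): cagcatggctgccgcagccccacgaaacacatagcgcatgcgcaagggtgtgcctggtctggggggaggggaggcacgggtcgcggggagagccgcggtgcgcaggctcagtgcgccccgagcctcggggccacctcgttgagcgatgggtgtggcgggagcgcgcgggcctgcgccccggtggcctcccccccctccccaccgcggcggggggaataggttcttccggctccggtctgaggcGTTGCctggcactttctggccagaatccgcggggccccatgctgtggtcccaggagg

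GGGAA was found 1 time in that window, 2 times each in H2-Aa and H2-Oa, 1 time in H2-Ob and not in H2-Eb1, H2-DMb1 or H2-DMb2. It was found in 62.7% of all windows.

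**Figure D1:**
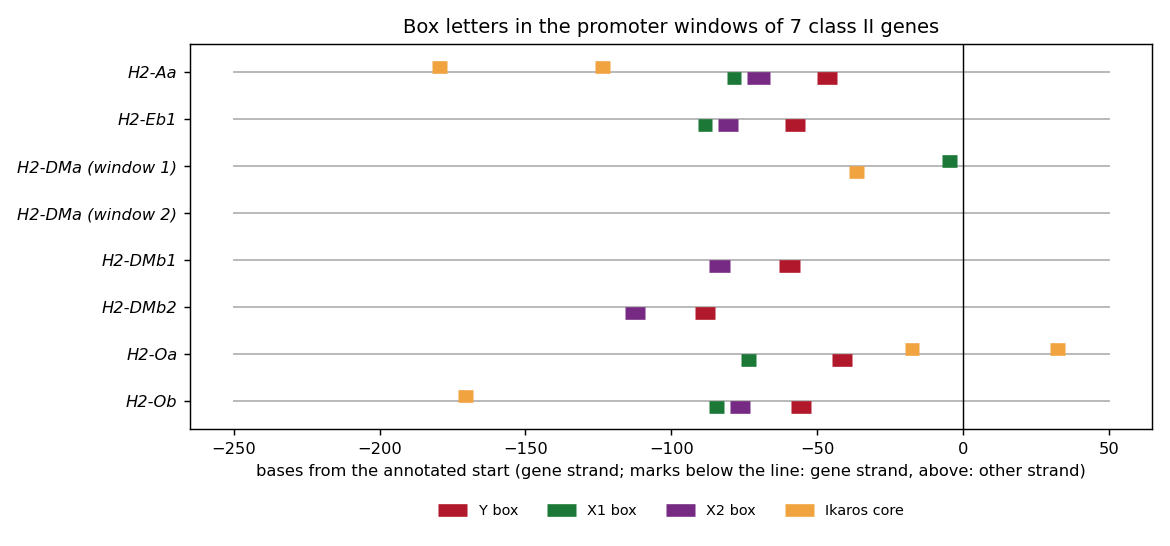
Positions of the box letters in the promoter windows of 7 class II genes, in bases from the annotated start. Marks under each line lie on the gene's strand and marks above it on the other strand. The Y box letters sit at -92 to -39 in 6 genes and were not found in either H2-DMa window, the only parts of that gene searched.

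Library totals ran from 33296158 to 46868954 counts with a median of 40943260, so 3 counts, taken here as the limit that a count of 0 allows, equalled 0.0621 to 0.102 CPM (counts scaled to a library of 1000000 with TMM factors). This limit covers counting error only. Replicates of a time point differed by more than sampling noise at each time (chi-square per degree of freedom 1.26 to 14.9), most at 18 h (14.9), 12 h (9.95) and 21 h (4.78), and results that change when 1 of those libraries is left out are named below. The labels do not say whether replicates were separate cultures, so p-values measure the spread between these libraries, which may be technical. The descriptions of the 0 h pair, the baseline of most comparisons here, differ in the marks T1 and T2, whose meaning is not given. Ikzf1 itself was at 4845 and 4838 CPM at 0 h and at 9227 and 8380 CPM after 24 h. Those counts do not separate the cells' own gene from the fusion, and since 4-OHT moves a protein, they do not check its activation.

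The pre-B label was checked against marker genes. Pax5, Ebf1, Cd79a, Cd79b, Blnk and Ighm were present. The 12 pre-B markers summed to 11270 to 11347 CPM at 0 h and 12862 to 13258 CPM at 24 h. On average Ebf1 held 9793 and 7838 CPM of these sums and Pax5 1074 and 3947 CPM. The sums thus speak mostly for those genes, not for all 12. Of the 10 tested, 6 were called up and 2 down at 24 h (more than 2-fold at an adjusted p-value below 0.01 by edgeR), beside 20% of all tested genes up and 20.1% down, and the 2 were the surrogate light chain genes Igll1 (169 to 0.985 CPM) and Vpreb1 (17.6 to 0.370 CPM), which mark early pre-B cells. Rag1 and Rag2, the recombinase genes, were listed at 0 in every library. Both lie wholly inside other annotated genes, and among these counts 94.2% of the 745 protein-coding genes that lie wholly inside a gene of the other strand, and 93.5% of the 323 inside a gene of the same strand, were at 0 throughout, against 19.0% of the 11764 genes with no overlap. The 8 listed genes at 0 in all libraries were H2-Oa, Irf8, B2m, Psmb10, Hsd17b8, Rag1, Rag2 and Itgam, and each was at least 99.92% overlapped by another gene. A count of 0 for such a gene therefore says nothing on whether it was transcribed.

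Markers of other cell types were read beside these results, and their calls stand against the same 20% up and 20.1% down at 24 h. The 8 dendritic cell markers summed to 5.16 to 5.74 CPM at 0 h and 53.4 to 67.6 CPM at 24 h. Of the 5 that were tested, Flt3 (1.17 to 54.6 CPM), Itgax (0.0662 to 2.49 CPM) and Siglech (0.176 to 0.513 CPM) were called up and Batf3 (0.219 to 0.0285 CPM) down. Zbtb46 was at 2.09 to 4.07 CPM in the 20 libraries (3.64 at 0 h and 2.73 at 24 h) and was not called. Xcr1, Clec9a and Ccr7 held too few counts to test and reached at most 0.136, 0.173 and 0.155 CPM. The 8 macrophage and monocyte markers summed to 50.8 to 52.6 CPM and then 21.5 to 23.4 CPM. Of 6 tested, 0 were called up (1 at an unadjusted p under 0.05 in edgeR) and 4 down. The 4 were Ccr2 (29.2 to 0.0285 CPM), Cd68 (5.27 to 2.13 CPM), Fcgr1 (2.97 to 0.368 CPM) and Csf1r (1.19 to 0.407 CPM). Ccr2 carried most of the fall in the sum. Mrc1 was higher at 24 h (12.5 to 19.1 CPM, log2 0.61) and was not called. The 8 T cell markers summed to 5.79 to 6.44 and 4.78 to 5.16 CPM, with 0 called of 3 (1 down at an unadjusted p under 0.05). The 6 plasma cell markers summed to 31.4 to 32.1 and 31.9 to 32.5 CPM, with Jchain (0.165 to 5.79 CPM) called up of 3. DESeq2 also gave 0 for each of these counts of 0, and called 2 of the dendritic cell markers up and 0 down. The part of these markers in the class II values was not tested, and in bulk samples fewer cells of a type and less RNA per cell cannot be told apart.

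At 0 h the 10 genes differed widely in level. H2-DMa was at 11.6 ± 0.456 CPM (SD, n = 2, as throughout), H2-Ob at 3.58 ± 0.254, H2-Ab1 at 1.93 ± 0.524, Cd74 at 1.80 ± 0.0254 and Ciita at 0.243 ± 0.00711 CPM, and the other 5 were at 0 or within a few counts of it. Per kilobase of gene body, a scale on which genes can be compared, H2-DMa stood at 0.593 CPM per kilobase, H2-Ob at 0.231, Cd74 at 0.204 and H2-Ab1 at 0.164, and H2-DMb1, H2-DMb2, H2-Aa and H2-Eb1 at 0.00616 or less. Ciita was at 0.00502, or at 0.0108 over the part that no other gene overlaps, and H2-Oa could not be measured. H2-Ab1 (0.133 and 0.196 in the replicates) and Cd74 (0.206 and 0.202) differed by less than the spread of H2-Ab1, and H2-Ob (0.242 and 0.219) lay above both. Per kilobase of exon the order of the middle genes changed, with H2-Ob falling to rank 4. By 24 h H2-Ob led at 8.94 CPM per kilobase of gene body, ahead of H2-DMa at 1.63, H2-Ab1 at 0.125 and Cd74 at 0.0744, and the rest that could be measured were at 0.0178 or less.

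**Figure D2:**
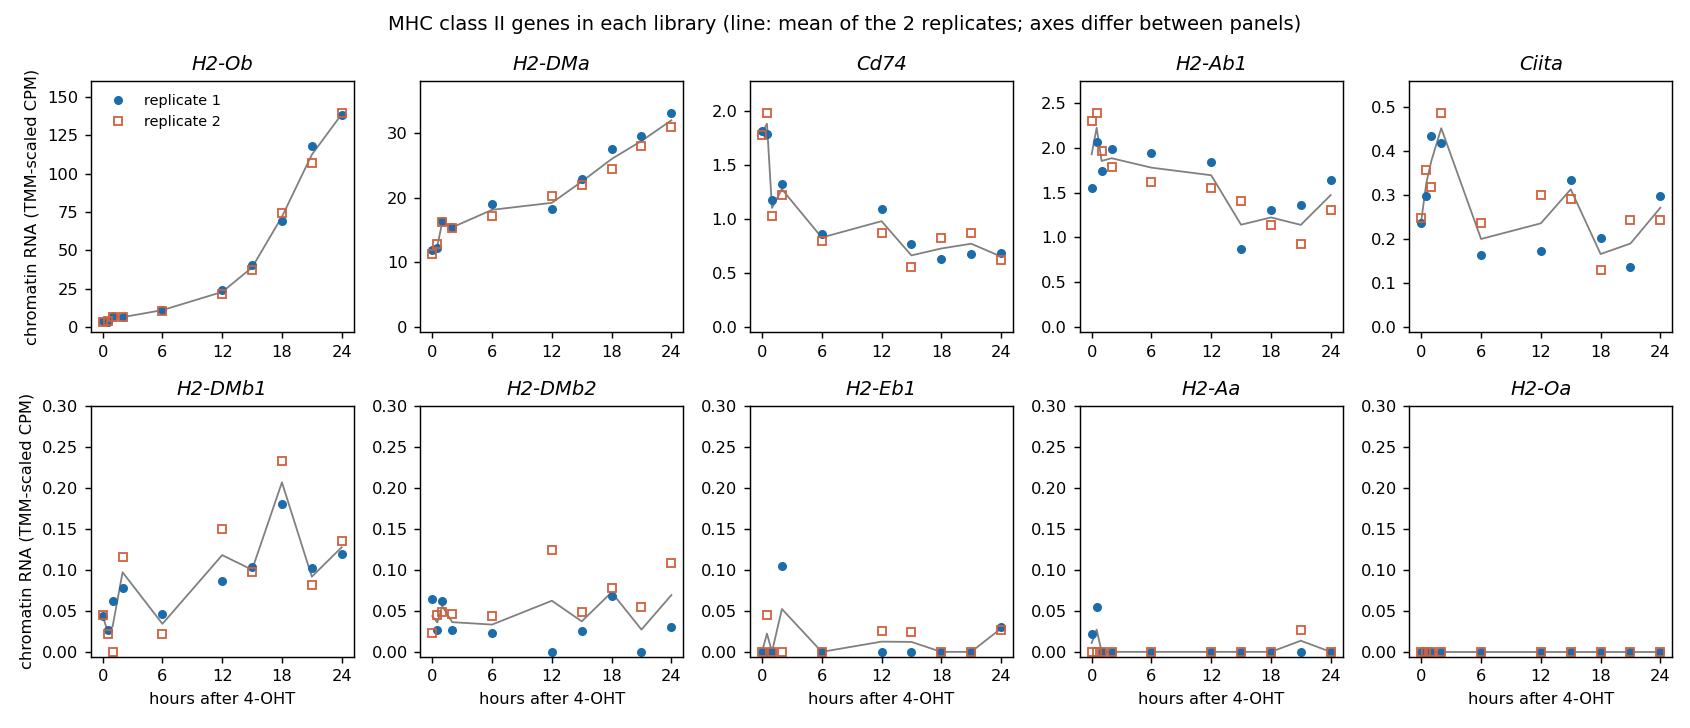
Chromatin-associated RNA of the 10 class II genes in each of the 20 libraries, in TMM-scaled CPM against hours after 4-OHT. Points are single libraries and lines join replicate means. Axes differ between panels: H2-Ob climbs from 3.58 to 139 CPM and H2-DMa from 11.6 to 32.0 CPM, Cd74 falls from 1.80 to 0.655 CPM, and the lower row stays at or below 0.233 CPM.

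The class II genes did not move together. After 24 h H2-Ob had risen 38.7-fold and H2-DMa 2.75-fold, Cd74 had fallen 2.74-fold, and H2-Ab1 and Ciita were not called. The other 5 held too few counts to test. Testing required 10 counts or more in 2 libraries or more, which left H2-Ob, H2-DMa, Cd74, H2-Ab1 and Ciita. A call required more than a 2-fold difference at an adjusted p-value below 0.01 by the edgeR quasi-likelihood test, with Benjamini-Hochberg adjustment over 16601 genes. At 30 min and at 1 and 2 h, 0 of the 5 were called, beside 0.0542% of all tested genes up and 0.41% down at 30 min, 2.33% up and 4.84% down at 1 h, and 6.25% up and 6.91% down at 2 h. DESeq2 also called 0 of the 5 at these times, and at an unadjusted p under 0.05 in edgeR 0 passed at 30 min, 3 at 1 h (2 up, 1 down) and 4 at 2 h (3 up, 1 down). At 6 h H2-Ob was called up (10.9% of all genes) and Cd74 down (9.13%). At 12 h H2-Ob was called up (13.2%) and 0 of the 5 down (9.92%), with 1 down at an unadjusted p under 0.05 and 0 called by DESeq2. At 15 h H2-Ob was up (15.3%) and Cd74 down (13.1%). H2-DMa joined H2-Ob at 18 h (19.1%), 21 h (20.1%) and 24 h (20%), and Cd74 was called down at each of these times (17.6% at 18 h, 19.4% at 21 h and 20.1% at 24 h). Over the whole course, 3 of the 5 changed, beside 51.9% of all genes tested. H2-Ab1 joined them when some single libraries were left out, as given below. Calls were frequent across the genome by 18 h, and the number of class II genes called does not set them apart from it.

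**Figure D3:**
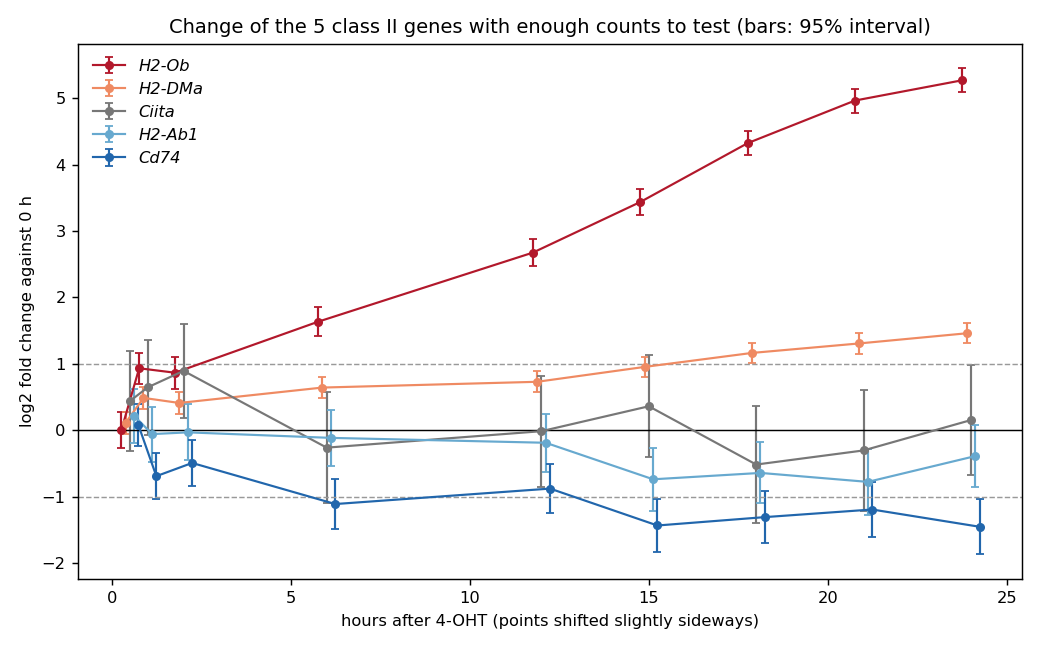
Log2 fold change against 0 h of the 5 class II genes that could be tested, by hours after 4-OHT, with 95% intervals from edgeR. Dashed lines mark 2-fold. H2-Ob reaches 5.27 and H2-DMa 1.46 at 24 h, Cd74 reaches -1.45, and the 24 h intervals of Ciita and H2-Ab1 include 0.

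H2-Ob (ENSMUSG00000041538, chr17:34238903-34254414, plus strand, GRCm38, no overlapping gene) codes for the beta chain of H2-O, the B cell modulator of peptide exchange. In replicates 1 and 2 its level was 3.76 and 3.40 CPM at 0 h, 3.22 and 3.88 after 30 min, 7.01 and 6.66 after 1 h, 6.42 and 6.64 after 2 h, and 11.4 and 10.9 after 6 h. It then stood at 24.5 and 21.5 CPM after 12 h, 40.8 and 37.0 after 15 h, 69.3 and 74.6 after 18 h, 118 and 107 after 21 h, and 138 and 139 after 24 h. Both libraries of every time point from 1 h onward were above both at 0 h, and from 6 h onward no library overlapped those of an earlier time. The libraries of 1 and 2 h lay close together, and all later ones higher.

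At 1 h H2-Ob was 1.91-fold higher than at 30 min (log2 difference 0.94 ± 0.12, SE, adjusted p = 9.8e-07, edgeR quasi-likelihood test, Benjamini-Hochberg), just under the fold required for a call, which was passed without replicate 2 of 30 min (1.09) or, against 0 h, without replicate 1 of 0 h (1.01). Between 1 and 2 h the log2 difference was -0.07 ± 0.10, with a 95% interval of -0.28 to 0.15. From 2 to 6 h the difference was 1.70-fold (log2 0.77 ± 0.10), which was not called. H2-Ob was 3.11-fold above 0 h at 6 h (log2 1.64), 6.39-fold at 12 h (2.68), 10.8-fold at 15 h (3.44), 20-fold at 18 h (4.33), 31.3-fold at 21 h (4.97) and 38.7-fold at 24 h (5.27, 95% interval 5.09 to 5.45, adjusted p = 2.3e-22, edgeR quasi-likelihood test, Benjamini-Hochberg). Of the steps between successive times, which are of unequal length, that from 6 to 12 h was called (log2 1.04, adjusted p = 1.5e-09 in the same edgeR test), where 4.79% of all genes were, but not without replicate 1 of 12 h (0.95). The steps of 3 h that followed gave log2 differences of 0.76 ± 0.07 from 12 to 15 h, 0.89 ± 0.07 from 15 to 18 h, 0.64 ± 0.06 from 18 to 21 h and 0.31 ± 0.06 from 21 to 24 h, none of them called. On the log2 scale the midpoint between 0 h and the maximum was passed at 11.8 h (11.4 and 12.1 h in the replicates), and on the linear scale at 17.9 h. At 24 h it ranked 235 among 16601 genes from the highest rise.

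H2-DMa (ENSMUSG00000037649, chr17:34119541-34139101, plus strand) codes for the alpha chain of the peptide exchanger that H2-O restrains. It stood at 11.9 and 11.3 CPM at 0 h, 12.2 and 12.8 after 30 min, 16.3 and 16.2 after 1 h, 15.5 and 15.3 after 2 h, and 19.1 and 17.2 after 6 h. It continued at 18.2 and 20.2 CPM after 12 h, 23.0 and 22.0 after 15 h, 27.6 and 24.4 after 18 h, 29.6 and 27.9 after 21 h, and 33.1 and 30.9 after 24 h. All libraries from 1 h onward were above those of 0 h and 30 min, and the 24 h libraries were above all others.

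The first step of H2-DMa, like that of H2-Ob, lay between 30 min and 1 h (log2 difference 0.38 ± 0.08), and from 1 to 2 h the difference was -0.08 ± 0.08. Against 0 h it was 1.40-fold higher at 1 h (adjusted p = 1.8e-05), 2.24-fold at 18 h (3.8e-12) and 2.75-fold at 24 h (log2 1.46, 95% interval 1.31 to 1.61, adjusted p = 5.8e-14), by the edgeR quasi-likelihood test (Benjamini-Hochberg). Its midpoint came at 12.0 h on the log2 scale but at 13.1 and 9.0 h in the replicates. Of the gene, 26.7% is overlapped by genes of the other strand, among them Brd2, and 3.02% by a gene of its own strand. Brd2 was lower at 24 h (105 to 77.4 CPM, log2 -0.44) and was not called.

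The H2-DM beta chains had few counts. H2-DMb1 (chr17:34153072-34160230, plus strand), a beta chain of H2-DM, had 69 counts over the 20 libraries, from 0 to 9 in each with a median of 3. It had 2 and 2 counts at 0 h, 8 and 9 after 18 h, and 4 and 5 after 24 h. The ratio of 18 h to 0 h was 4.64 (exact 95% interval 1.51 to 19.0) and that of 24 h to 0 h was 2.90 (0.809 to 12.9), both for counting error only. Without the filter on low counts, the edgeR quasi-likelihood test (Benjamini-Hochberg) gave an adjusted p of 0.017 at 18 h and 0.22 at 24 h, so it was not called.

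H2-DMb2 (chr17:34143307-34151555, plus strand), the other beta chain, had 39 counts in all, from 0 to 5 in each library with a median of 2. It had 3 and 1 counts at 0 h and 1 and 4 after 24 h, a ratio of 1.61 (exact 95% interval 0.347 to 8.12). These genes are close copies, and how shared reads were counted is not given in the sources used here, so the counts of both are uncertain. H2-Oa (chr17:34092340-34095234, plus strand), the alpha chain that pairs with H2-Ob, was listed at 0 in all 20 libraries and lies wholly inside BC051537 on the other strand, so it is among the genes that this table cannot measure.

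Cd74 (ENSMUSG00000024610, chr18:60803848-60812652, plus strand) codes for the invariant chain, the chaperone of new class II molecules, and moved in the opposite direction. It stood at 1.81 and 1.78 CPM at 0 h, 1.79 and 1.98 after 30 min, 1.18 and 1.03 after 1 h, 1.33 and 1.23 after 2 h, and 0.864 and 0.798 after 6 h. Later values were 1.09 and 0.872 CPM after 12 h, 0.773 and 0.558 after 15 h, 0.632 and 0.827 after 18 h, 0.678 and 0.869 after 21 h, and 0.686 and 0.624 after 24 h. Each library from 1 h onward was below those of 0 h and 30 min, and times from 15 h onward overlapped each other.

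Between 30 min and 1 h Cd74 was 1.70-fold lower (log2 difference -0.77 ± 0.17, adjusted p = 0.00085, edgeR quasi-likelihood test, Benjamini-Hochberg), short of a call, in the interval where H2-Ob and H2-DMa were higher. Against 0 h the log2 differences were -0.69 at 1 h, -0.49 at 2 h, -1.11 at 6 h, -0.88 at 12 h, -1.44 at 15 h, -1.31 at 18 h, -1.19 at 21 h and -1.45 at 24 h. A call was missed at 12 h by size and made there without replicate 1 of 12 h (-1.04). At 24 h the gene had fallen 2.74-fold (95% interval of log2 -1.87 to -1.04, adjusted p = 1e-06, edgeR quasi-likelihood test, Benjamini-Hochberg). On 20 to 89 counts a library, its midpoint at 3.52 h on the log2 scale and 0.923 h on the linear scale is loosely set. Its 24 h difference ranked 2426 from the largest fall among 16601 genes.

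The classical chains form the molecule that presents the peptide. H2-Ab1 (ENSMUSG00000073421, chr17:34257689-34269419, plus strand), the beta chain of I-A, was at 1.56 and 2.30 CPM at 0 h, 2.06 and 2.38 after 30 min, 1.74 and 1.97 after 1 h, 1.98 and 1.78 after 2 h, and 1.94 and 1.62 after 6 h. It was at 1.84 and 1.55 CPM after 12 h, 0.876 and 1.41 after 15 h, 1.31 and 1.14 after 18 h, 1.36 and 0.923 after 21 h, and 1.64 and 1.3 after 24 h. The libraries at 15, 18 and 21 h were below both at 0 h, and those at 24 h overlapped 0 h. The log2 difference from 0 h was -0.74 at 15 h (adjusted p = 0.006), -0.78 at 21 h (0.0057) and -0.39 at 24 h (95% interval -0.85 to 0.07, adjusted p = 0.11) by the edgeR quasi-likelihood test (Benjamini-Hochberg), never above 2-fold. Over the whole course its adjusted p was 0.0029 in that test. Its call turned on single libraries: it was called down at 15 h without replicate 1 of 0 h (-1.0) or replicate 2 of 15 h (-1.14). At 21 h it was called down without replicate 1 of 0 h (-1.04) or of 21 h (-1.05). Leaving out any 1 of these libraries also had H2-Ab1 called over the whole course, as did library totals in place of TMM factors (-1.01).

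The partner alpha chain H2-Aa (chr17:34282744-34287823, minus strand) had 4 counts over 20 libraries, with 17 at 0 and a highest count of 2, and no gene overlaps it. H2-Eb1 (chr17:34305867-34316674, plus strand), the beta chain of I-E, had 10 counts, with 14 libraries at 0 and a highest count of 4 at 2 h. The antisense gene Gm20513 overlaps 20.4% of it. For H2-Aa all libraries, and for H2-Eb1 all but the 1 with 4 counts, were at or below the 3-count limit, so no fold can be given. The H2 haplotype of B3 is not given in the sources used here.

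Ciita (ENSMUSG00000022504, chr16:10480059-10528418, plus strand) codes for the transactivator on which class II genes depend. It held 4 to 21 counts a library, with a median of 11. It was at 0.238 and 0.248 CPM at 0 h, 0.298 and 0.357 after 30 min, 0.434 and 0.319 after 1 h, 0.418 and 0.486 after 2 h, and 0.163 and 0.237 after 6 h. It was at 0.173 and 0.299 CPM after 12 h, 0.335 and 0.291 after 15 h, 0.203 and 0.129 after 18 h, 0.136 and 0.244 after 21 h, and 0.298 and 0.244 after 24 h. The libraries of 30 min to 2 h were above those of 0 h, and those of 24 h overlapped 0 h.

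The log2 difference of Ciita at 2 h was 0.89 ± 0.34 (adjusted p = 0.033) and at 24 h 0.15 (95% interval -0.67 to 0.98, adjusted p = 0.76), neither called, by the edgeR quasi-likelihood test (Benjamini-Hochberg). From 2 to 6 h it was 2.23-fold lower (log2 -1.16 ± 0.35), and the adjusted p of 0.011 in the same edgeR test missed the threshold. The adjusted p over the whole course was 0.025 in that test. With so wide an interval, smaller changes were not detectable at this depth. Dexi, a gene of the other strand, overlaps 53.5% of Ciita, which leaves 22.5 kilobases in which its reads are its own.

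The wider pathway was read from lists written for this account, each given as calls at 24 h beside the background of 20% up and 20.1% down and a median log2 fold change of -0.01 over all genes. Scaled by library totals alone, without TMM factors, that median moved to -0.27 and the 3323 genes up and 3329 down became 2603 and 4260, so these values hold relative to the bulk of genes. Of the 10 factors of the class II transactivator complex, all tested, 1 was called up and 0 down (median 0.55). It was Rfx5, a subunit of the X1 box binder RFX, at 14.6 ± 0.0698 CPM at 0 h and 29.3 ± 0.00295 CPM at 24 h. Its log2 difference of 1.0 sat on the threshold, and the call was lost without replicate 1 of 0 h (0.99). Of the 11 factors known to act on the Ciita gene, 9 were tested, 3 were called up and 0 down (median 0.63). They were Bach2 (507 to 5658 CPM, log2 3.48), a repressor of plasma cell differentiation, Irf1 (3.61 to 17.3 CPM, 2.26), an interferon-response activator, and Pax5 (1074 to 3947 CPM, 1.88), the B cell identity factor. Ciita itself was not called.

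Of the 10 endosomal proteases and antigen-processing genes, 9 were tested, 4 were called up and 0 down (median 0.91). Ctss, the cathepsin that trims the invariant chain in B cells, went from 6.11 ± 0.0853 to 22.3 ± 0.767 CPM (log2 1.87). Sppl2a, the membrane protease that clears the last invariant chain stub, went from 65.0 ± 0.124 to 135 ± 2.53 CPM (1.06). The other two were Ctsc (40.6 to 185 CPM, 2.19), a dipeptidyl peptidase, and Lgmn (17.6 to 45.7 CPM, 1.37), an asparaginyl endopeptidase. Scaled by library totals alone, Sppl2a was at 0.80 and not called.

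Of 8 genes of class II turnover and co-stimulation, 6 were tested, 2 were called up and 1 down (median 0.59). Marchf8, a ubiquitin ligase of the family that removes class II from the surface, went from 22.1 to 77.6 CPM (log2 1.81), and Cd22, an inhibitory B cell receptor, from 7.96 to 19.4 CPM (1.29). Cd40, the receptor for T cell help, went from 0.694 ± 0.0577 to 0.117 ± 0.0881 CPM (-2.58) on few counts, and could not be tested when either 0 h library was left out. Marchf1, a ligase of that family, was at -1.0 and not called, but was called down without replicate 2 of 0 h (-1.09) or replicate 1 of 24 h (-1.10).

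MHC class I, the sister pathway that shows peptides from the cytosol, served as a comparison. Of its 14 genes 12 were tested, 0 were called up and 2 down (median 0.06). The 2 were the chaperones Canx (270 to 105 CPM, log2 -1.37) and Calr (39.9 to 19.6 CPM, -1.03), which also fold many other proteins. The call of Calr was lost without replicate 2 of 0 h (log2 -0.98) or of 24 h (-0.94). The log2 fold changes of the 10 not called ran from -0.15 (Psmb8) to 0.90 (Tapbp, 10.5 to 19.6 CPM). Among them were the heavy chains H2-K1 (0.05) and H2-D1 (0.72, 46.8 to 76.9 CPM) and the transporters Tap1 (0.09) and Tap2 (0.12).

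**Figure D4:**
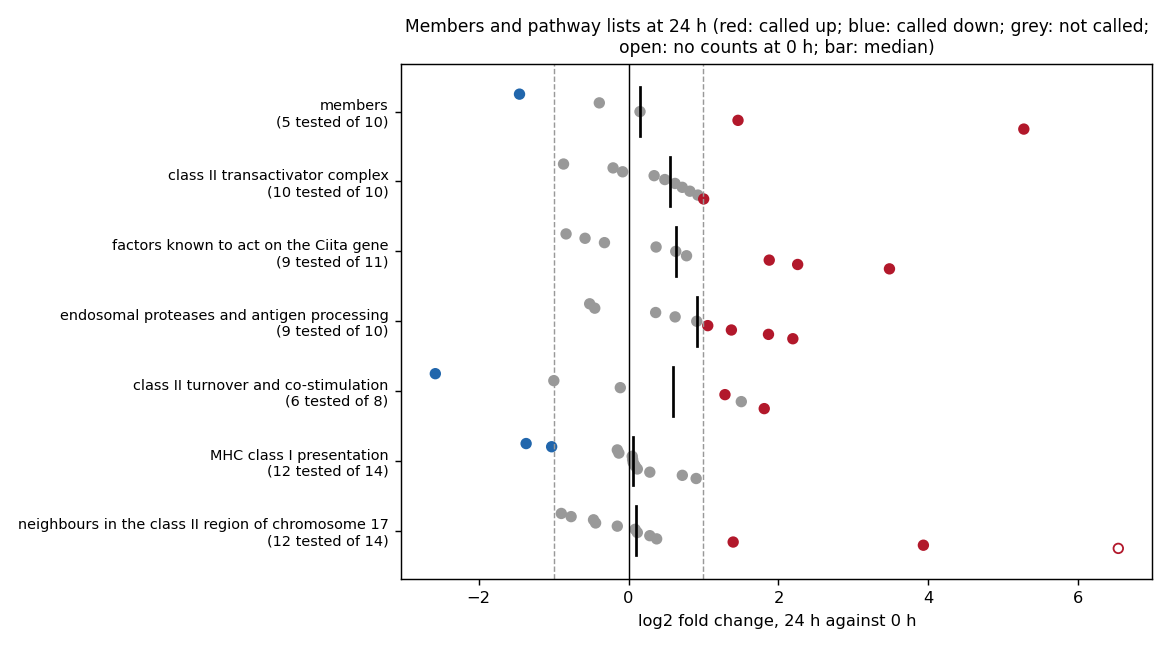
Log2 fold change at 24 h against 0 h of each tested gene in the class II genes and 6 pathway lists. Red points were called up, blue down and grey not called, the open point had no counts at 0 h, and bars are medians. The list medians lie between 0.06 and 0.91, and H2-Ob at 5.27 lies above every gene of the lists with counts at 0 h.

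H2-Ob lies in the class II cluster of chromosome 17, and 31 genes are annotated within 200 kb of its start. Of these 14 were tested, 5 were called up, 0 down and 9 not called, beside 20% up and 20.1% down among all tested genes, with a median log2 fold change of 0.10 (0.09 without H2-Ob). The nearest tested genes on either side were Tap2, the peptide transporter of class I, at 0.12 (95% interval -0.01 to 0.25), and H2-Ab1, 18.8 kb from the H2-Ob start, at -0.39 (-0.85 to 0.07). The others called up were H2-DMa, BC051537, H2-Eb2 and Btnl2, all named here after their values were seen apart from H2-DMa and Btnl2. The genes tested next to H2-Ob on both sides were thus not called, while 4 farther off were.

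BC051537, the antisense gene that encloses H2-Oa, was at 0.238 and 0.225 CPM at 0 h and 0.865 and 0.760 CPM after 24 h (log2 1.79 ± 0.32, adjusted p = 3.1e-05, edgeR quasi-likelihood test, Benjamini-Hochberg). H2-Eb2 (chr17:34325665-34341412), a second I-E beta-like gene, is no member of the 10. It had 1 and 1 counts at 0 h, 7 and 16 after 1 h, 21 and 25 after 2 h and 17 and 8 after 24 h. The ratio of 2 h to 0 h was 25.6 (exact 95% interval 6.69 to 218) and that of 24 h to 0 h was 16.1 (4.02 to 140), for counting error only. At 2 h its level was 0.548 and 0.578 CPM. Btnl2, a butyrophilin-like gene beyond it, had 0 and 0 counts at 0 h and 8 and 12 after 24 h, at least 4.26-fold higher against a floor of 3 counts per library.

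Of the 14 genes listed as class II neighbours, which reach beyond this window, 12 were tested, 3 were called up and 0 down (median 0.10). They were Btnl2, Notch4 (1.08 to 16.6 CPM, log2 3.93), a Notch receptor gene, and Pbx2 (8.0 to 21.1 CPM, 1.40), a homeobox factor. For the lists with 0 down, an unadjusted p under 0.05 was met by 2 transactivator genes, 3 factors of Ciita, 2 proteases and 4 neighbours, for class I by 3 genes up, and DESeq2 gave 0 for each. Col11a2, a collagen gene at -0.90, was called down without replicate 1 of 24 h (-1.12).

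**Figure D5:**
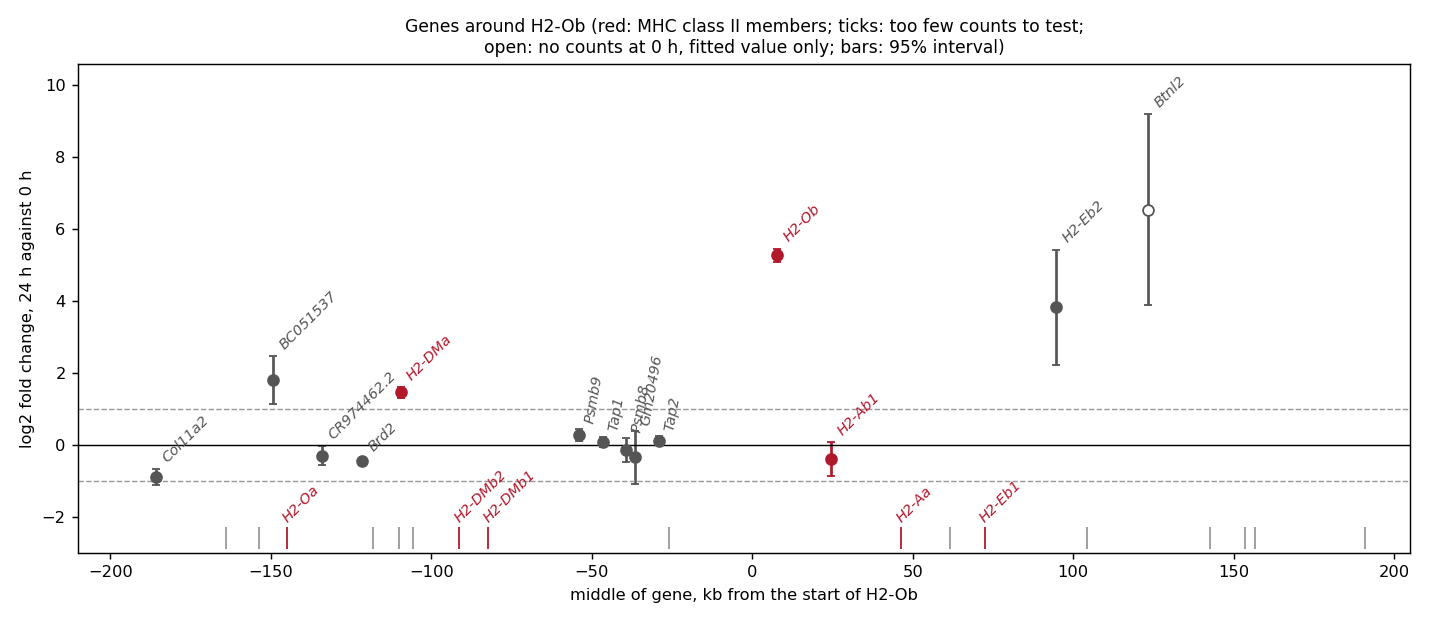
Log2 fold change at 24 h against 0 h, with 95% intervals, of the 14 tested genes within 200 kb of the H2-Ob start, by the distance of each gene's middle in kb. Red marks class II members and ticks mark genes with too few counts. H2-Ob at 5.27 stands between Tap2 at 0.12 and H2-Ab1 at -0.39.

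The genes most like each member over time were found by the Pearson correlation of log2 CPM means over 10 time points, among 12038 genes averaging at least 1 CPM. These are descriptions across time points that share an order. Cd74 was nearest to 4933433G19Rik (r = 0.982), Hmgxb4 (0.978), Gm30363 (0.968), Gtpbp8 (0.968) and Star (0.968). The lists for the other members were added after their values were seen. H2-Ob was nearest to Arid5b (0.998), Fam214a (0.996), Sesn1 (0.996), Xpr1 (0.996) and Pde4b (0.996), which reached log2 fold changes of 3.22, 3.79, 1.89, 1.34 and 4.44 after 24 h. H2-DMa was nearest to Scml4, Mxi1, Chd7, Arid4b and Fcho2 (0.994 to 0.996), and H2-Ab1 to Snrpf, Bmp8b, Elob, Ado and Pkp4 (0.950 to 0.965). Among the members, the correlation was 0.987 between H2-Ob and H2-DMa, 0.833 between Cd74 and H2-Ab1, and -0.885 between H2-Ob and Cd74. Ciita averaged 0.278 CPM and was not compared.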

How the data were processed

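Chromatin-associated RNA of the 20 libraries was sequenced as 75 bp paired-end reads from a directional, rRNA-depleted kit. The authors aligned reads to mm10 (GRCm38) with STAR in the nf-core/rnaseq pipeline, used featureCounts to count exonic and intronic reads of each gene, and deposited raw counts without normalization, 1 column per library. CASAVA 2.17 is named in the submitters' processing notes. Annotation release, strand setting and the treatment of reads shared by 2 genes are not given in the sources used here. Library totals ran from 33296158 to 46868954, and the precision they give is for counting error only.

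The 16601 genes with 10 counts or more in 2 libraries or more were tested with edgeR 4.0.16 in R 4.3.3 (quasi-likelihood test with TMM factors, 1 model of all libraries with a term for time point, Benjamini-Hochberg adjustment over all tested genes). A call required more than a 2-fold difference at an adjusted p-value below 0.01, and a gene changed over the course passed the test of all induced times together and the fold at any of them. CPM were scaled by TMM factors. DESeq2 1.42.0, other scalings, filters and thresholds, a replicate block and leaving out each library were alternatives. Same-numbered replicates did not deviate in a common direction (mean correlation -0.000316, from -0.454 to 0.249 over 45 pairs of times), so no block was used. Correlations of both signs cannot show whether some times shared a batch under other numbers. Positions and overlaps came from GENCODE M21, which holds 55240 of 56239 identifiers, and promoters from RefSeq. Symbols for 3 of 111 listed genes were matched by an older name.

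All 10 members are described. From each pathway list up to 4 called genes with the largest absolute log2 fold change at 24 h are named, and for Ciita and Cd74, where they average at least 1 CPM, the 5 genes most like them over time. Members and lists were chosen with earlier results of these data known.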

Additional observations from a re-analysis of the deposited data

How the results depend on the processing

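Of the 483 alternative values for counts of called members or listed genes, 457 stayed within 1.5 times the reported count, and 26 moved. Scaled by library totals alone, 2 members were called down at 21 h in place of 1 (H2-Ab1 joined Cd74), the transactivator complex had 0 genes up and 1 down in place of 1 and 0, the factors acting on Ciita had 1 down in place of 0, turnover and co-stimulation 2 in place of 1, and the neighbours 2 in place of 0. Under this scaling the log2 fold change of Ciita at 24 h turned from 0.15 to -0.10, and no other member changed direction at 24 h. The fall of Ciita from 2 to 6 h was called (1 member in place of 0) with DESeq2 size factors, with an adjusted p-value under 0.05 or with only the 4 libraries compared. Without a filter on low counts the transactivator complex had 0 genes up and turnover and co-stimulation 2 down, and with at least 10 counts in every library the latter had 0, since Cd40 was then not tested. The cause of the other moves was not tested.

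Leaving out 1 library at a time gave 0 to 1 members up at 1 h, 0 to 1 down at 12 h, 1 to 2 down at 15 h and 1 to 2 down at 21 h, 0 to 1 called from 30 min to 1 h and 0 to 1 from 6 to 12 h. It gave 0 to 1 transactivator genes up, 0 to 2 turnover genes, 1 to 2 class I genes and 0 to 1 neighbours down at 24 h. The log2 fold change of H2-Ab1 at 2 h, -0.03 and not called, ranged from -0.29 to 0.27. Over all alternatives at 24 h, H2-Ob stayed between 5.02 and 5.35, H2-DMa between 1.2 and 1.51 and Cd74 between -1.71 and -1.38, each still called. The replicate block gave 2 members up and 1 down at 24 h, as without it, and 3314 genes up and 3328 down among all genes. It changed no call of a member. Depth limits Ciita, at 4 to 21 counts a library, and the 5 untested members.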
